A study of Homo sapiens with 26 samples.

Results

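The comparison set 3 ribosome profiling libraries of Huh7 cells given 1.5 µM PF-06446846 for 10 min against 3 libraries of cells given vehicle (0.5% DMSO) for the same 10 min. The libraries were chosen by the compound concentration, the treatment time and the library type in the labels, within the first of the study's profiling experiments, and they are 6 of the 26 libraries in the series. Huh7 is an unmodified human hepatocellular carcinoma line, grown on plates. Both groups received fresh warm medium at the start of the 10 min and were harvested into cycloheximide, an elongation blocker. The study also profiled 0.3 µM and 60 min in the same experiment and made a second set with mRNA libraries, which was not used here. The question was which groups of genes move within 10 min, upward as well as downward.

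PF-06446846 is a small molecule that binds the human ribosome and stalls it while certain nascent chains lie in the exit tunnel, the channel through which the growing protein leaves the large subunit. Ribosome profiling sequences the short mRNA fragments that ribosomes protect from nuclease, so each read marks the position of 1 ribosome. A ribosome that stalls early in a coding sequence (CDS) piles reads up at the stall, holds up the ribosomes behind it and starves the rest of the CDS of reads. For this reason reads were counted over the whole CDS, after codon 50 and over codons 1 to 50. A footprint count follows both the amount of an mRNA and the number of ribosomes on it, and these cannot be told apart in the libraries compared here.

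Depth differed between the groups. The vehicle libraries held 8489374 to 17234235 reads in coding sequences and the 1.5 µM libraries 6871492 to 9755922. The vehicle libraries did not form a tight group. The median absolute log2 difference per gene was 0.163 between vehicle replicates 1 and 2 and between 1 and 3, and 0.23 between 2 and 3. Vehicle replicate 3 was nearer to 1.5 µM replicate 3 (0.123) than to either of them, and vehicle replicate 2 lay farthest from the 1.5 µM libraries (0.237 to 0.304). Counts of called genes over the whole CDS are for most gene classes given also without vehicle replicate 3, whose removal raised them most, and 7.87% of all genes were then called higher and 7.01% lower. Leaving out any other library lowered the calls over all genes, from 94 to between 9 and 60. Class counts without vehicle replicate 3 thus come from the fit with the most calls. They are to be read only against the shares of all genes called without vehicle replicate 3. Whether that library was exchanged with another was not tested, and every count that it enters would be affected. Summed normalised footprints of 21 transcripts with a known stall, described below, were 4223 in vehicle replicate 3. They were 3974 and 4143 in vehicle replicates 1 and 2, and 2691 to 3019 in the 1.5 µM libraries. Among cell type markers, 11 hepatocyte markers were named in the tables, with AFP (alpha-fetoprotein, the fetal liver plasma protein that marks this line) at 9882 to 13890 normalised counts (CPM, counts per 1000000 reads) in the 6 libraries, and none of the 11 separated the groups over the whole CDS or after codon 50. Over codons 1 to 50, 6 of them lay above all vehicle libraries, beside 26.4% of all genes. The defining leukocyte and endothelial markers PTPRC, CD3D and VWF had no transcript under those names. Other members of these lists did have footprints. Of 2 leukocyte, 1 endothelial, 2 fibroblast and 3 cholangiocyte markers tested, none separated the groups over the whole CDS either. Their summed footprints averaged, in that order, 912, 15.2, 499 and 408 CPM in the vehicle libraries. At 1.5 µM they averaged 792, 16.7, 632 and 446 CPM.

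The most general change was at the start of the coding sequence. Ribosome density at the start codon, averaged over 7771 transcripts and relative to the mean density of each CDS, was 0.655, 0.88 and 0.911 in the vehicle libraries and 1.4, 1.52 and 1.24 in the 1.5 µM libraries. The 1.5 µM libraries were all higher, with a mean of 1.39 ± 0.139 (SD, n = 3) against 0.816 ± 0.14 (SD, n = 3), a ratio of 1.7. The ratio declined along the CDS, from 1.33 over codons 2 to 10 and 1.28 over codons 11 to 20 to 1.15 over codons 31 to 40 and 1.03 over codons 51 to 75. At each of these bins the groups did not overlap, which gives an exact two-sided permutation p of 0.1, the smallest that 3 libraries against 3 can reach. From codon 76 to codon 100 the ratio was 0.995 and the groups overlapped (exact permutation p = 0.8). Over the last 15 codons it was 0.86, again with overlap (exact permutation p = 0.2).

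**Figure D1:**
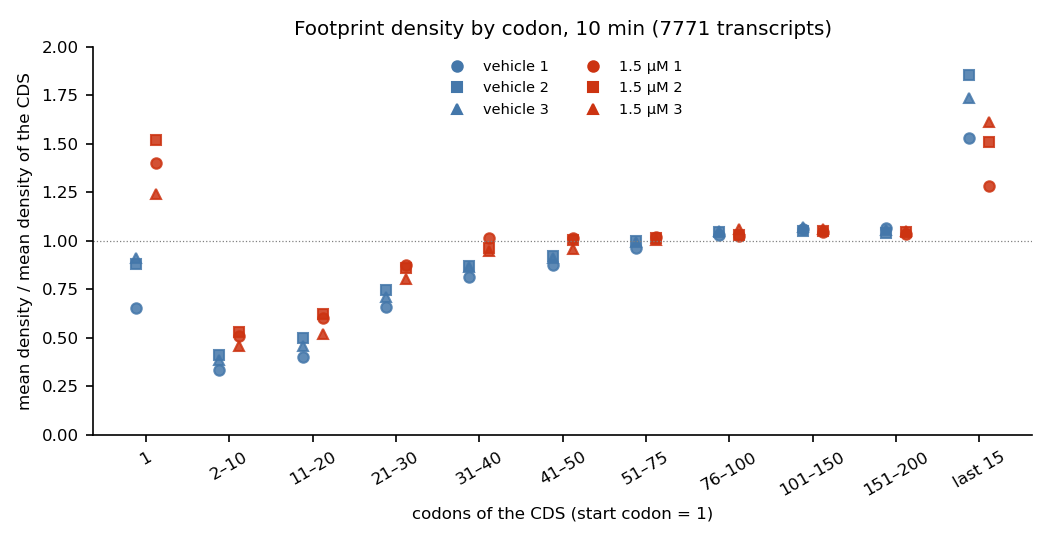
Footprint density in bins of codons (x axis, start codon = 1) relative to the mean density of the CDS (y axis, no unit), for 3 vehicle and 3 1.5 µM libraries of 10 min, 1 symbol a library. The 1.5 µM libraries lie above the vehicle libraries in every bin up to codon 75, with ratios of the means from 1.7 at the start codon to 1.03 at codons 51 to 75, and the groups overlap from codon 76 on.

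Accordingly, reads of codons 1 to 50 made up 14.3% to 14.8% of the reads in the 1.5 µM libraries and 11.2% to 13.7% in the vehicle libraries. With these reads scaled by the reads after codon 50, so that a change common to all genes is kept, the median log2 fold change of 7529 genes was 0.29. Genes called by edgeR's quasi-likelihood test with p-values adjusted after Benjamini-Hochberg, at a false discovery rate (FDR) of 0.1, numbered 1278, or 17% of those tested: 1203 were higher (16%) and 75 lower (0.996%). Groups did not overlap in 1985 genes that were higher (26.4%) and 238 that were lower (3.16%). Leaving out vehicle replicates 1 or 2 in turn gave 464 and 840 calls, and leaving out 1.5 µM replicates 1 or 2 gave 412 and 311. Without vehicle replicate 3 there were 1642, and without 1.5 µM replicate 3 there were 1302. Scaling codons 1 to 50 by their own totals, which removes the common part, left 204 higher and 195 lower.

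Over the whole CDS, far fewer genes were called at 10 min in the fit on all 6 libraries. By the same edgeR test, 94 of 11045 genes passed the FDR of 0.1 (0.851%): 51 were higher (0.462%) and 43 lower (0.389%). After codon 50, 195 of 10745 passed (1.81%), with 65 higher (0.605%) and 130 lower (1.21%). The genes moved in both directions, and the balance shifted toward lower counts once the first 50 codons were left out. All 43 genes lower over the whole CDS were also lower after codon 50, and 39 of the 48 higher genes that could be tested after codon 50 were also higher there, with none lower.

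Both counts depended on single libraries. Without vehicle replicate 3, 876 genes were higher (7.87%) and 780 lower (7.01%) over the whole CDS, and 850 were higher (7.86%) and 824 lower (7.61%) after codon 50. These made totals of 1656 and 1674 calls. Over codons 1 to 50 without that library there were 1642, of which 1486 were higher (18.3%) and 156 lower (1.92%). Leaving out vehicle replicate 1 gave 9 calls over the whole CDS, vehicle replicate 2 gave 57, 1.5 µM replicates 1 and 2 gave 12 each and 1.5 µM replicate 3 gave 60. After codon 50 the counts were 98, 103, 30, 25 and 130 in the same order. Of the called genes named by rule, 6 over the whole CDS kept the call whichever library was left out: MST1, HSD17B11, IGF2BP2, PCBP1, BCAP31 and HIST1H2BN. After codon 50 there were 17, among them RPL27, HSD17B11, MST1, MDK, PCBP1, PCBP2, DAD1 and ARF1.

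**Figure D2:**
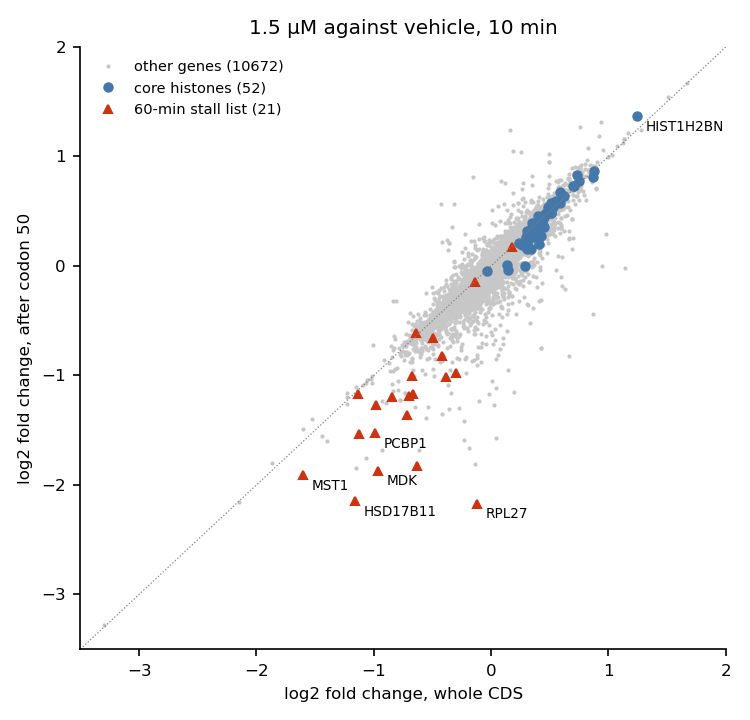
Log2 fold change over the whole CDS (x axis) against log2 fold change after codon 50 (y axis), 1.5 µM against vehicle at 10 min, for the genes tested in both, with 52 core histones and 21 genes of the study's 60-min stall list marked. Core histones lie near the diagonal (medians 0.44 and 0.42), while most of the stall list lies below the diagonal, RPL27 most of all (-0.12 over the whole CDS and -2.17 after codon 50).

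The clearest loss of footprints was on transcripts with a known stall. The study drew up a list of stall-bearing transcripts from its 60-min libraries, of which 21 are described here, and none of those libraries enters the 10-min comparison. After codon 50, 19 of the 21 were lower at 10 min and none higher, beside 1.21% of all genes lower, with a median log2 fold change of -1.19 against 0.00 over all genes. Calls numbered 13 to 19 with any 1 library left out. Over codons 1 to 50, 14 of the 20 that could be tested were higher, beside 16% of all genes, with a median of 1.03 against 0.29 over all genes. Over the whole CDS, 11 of the 21 were lower (median -0.67), beside 0.389% of all genes, but 5, 6 and 7 without vehicle replicate 1, 1.5 µM replicate 1 and 1.5 µM replicate 2, and 16 without vehicle replicate 3, when 7.01% of all genes were lower. The summed footprints of the list were 3974, 4143 and 4223 CPM in the vehicle libraries and 2691, 2832 and 3019 CPM in the 1.5 µM libraries, which did not overlap.

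For each gene the codon with the largest rise at 1.5 µM was located in the 60-min libraries, and this codon, called the 60-min stall codon here, was then read in the 10-min libraries. It is a peak of reads and in several genes, among them RPL27, PCBP1, USO1 and CDH1, not the main stall codon that the study assigned. At 19 of these 21 codons all 3 libraries of 1.5 µM at 10 min exceeded all 3 vehicle libraries in reads per 1000000 (RPM) per codon, averaged over the codon and its 2 neighbours, and at none were they all lower. Among 9785 other transcripts with at least 4 reads at the codon the same rule picked, the groups were separated upward in 19.9% and downward in 1.89%. These transcripts were not matched to the list in the number of reads at the codon. Where that codon lay within the first 50, the shares were 29.3% upward and 1.56% downward in the other transcripts, and 94.1% upward on the list. At the other 2 the groups overlapped, as in CCR1, a chemokine receptor with 4 reads in the vehicle libraries and none at 1.5 µM. For 13 genes the largest rise at 10 min lay within 2 codons of the 60-min position, and 17 of the 21 codons were within the first 50. Each exact permutation p for a separated codon is 0.1, the smallest possible here.

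A choice of 6 of these codons, not the most deeply read 6, is printed to show the sequence under the 60-min peak. Each line gives the 15 bases before the codon in the ribosomal P site, the codon in capitals and the 12 bases after it, 5′ to 3′ on the coding strand, read from GENCODE release 44 on GRCh38.
RPL27: tactccggacgcaaaGCTgtcatcgtgaag
HSD17B11: ctcccgttactgatcGTCtgctccctagag
PCBP1: accattcggcttcttATGcacggaaaggaa
PCBP2: accatccggctacttATGcatggaaaggaa
CD99: ggtggtttcgatttaTCCgatgcccttcct
USO1: ctaatgctacagcttGTTcgtgtattggta
The 6 codons are all in coding exons: codon 23 of RPL27 at chr17:42998817-42998819 (plus strand, exon 2), codon 16 of HSD17B11 at chr4:87391023-87391025 (minus strand, exon 1), codon 20 of PCBP1 at chr2:70087801-70087803 (plus strand, exon 1), codon 20 of PCBP2 at chr12:53454858-53454860 (plus strand, exon 2), codon 29 of CD99 at chrX:2714439-2714441 (plus strand, exon 2) and codon 287 of USO1 at chr4:75787065-75787067 (plus strand, exon 10). PCBP1 and PCBP2, paralogous poly(C)-binding proteins, had the peak at the same codon number in closely similar sequence. By the study's own notes most of their reads map to both, so they are not separate measurements.

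RPL27, a protein of the large ribosomal subunit, carried the most reads at its stall codon. The 3-codon window averaged 12.2 ± 3.98 RPM per codon in the vehicle libraries and 51.6 ± 2.28 RPM at 1.5 µM (SD, n = 3 each), a ratio of 4.23. At PCBP2 the window went from 4.25 ± 0.491 to 22.8 ± 3.9 RPM, a ratio of 5.37. These rises were present in every 1.5 µM library. HSD17B11, a short-chain dehydrogenase of lipid droplets, had 1.27 ± 0.229 RPM in vehicle and 7.83 ± 0.589 RPM at 1.5 µM, a ratio of 6.18. CD99, a cell surface glycoprotein, had a ratio of 11, from 31 reads in all vehicle libraries to 231 at 1.5 µM. In USO1, a vesicle tethering factor, the codon lay far from the start and the ratio was 6.52, from 35 to 146 reads. The largest ratio, 24.6 in PODXL2, a sialomucin-like membrane protein, compared 4 reads with 60. It was 39.1 without vehicle replicate 2 and 16.4 without vehicle replicate 3.

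A second codon was also raised in several of these transcripts. In PCBP1, USO1 and PLA2G15 this second codon is the main stall codon that the study assigned. At RPL27 it lay 9 codons before the stall codon, with 1.51, 0.721 and 4.95 RPM in the vehicle libraries and 70.3, 131 and 88.3 RPM at 1.5 µM. At PCBP2 it lay 12 codons after the stall codon, with 1.92, 1.92 and 1.65 RPM against 24.7, 18.6 and 29.9 RPM, and PCBP1 had its second rise at the same distance. Reads at these codons were low in all vehicle libraries and high in all 1.5 µM libraries. When the largest 10-min rise at 8 to 20 codons from the stall was located in each of the 21 genes, its distance was 9 to 13 codons in 15 genes, 5 of them upstream and 10 downstream, with a median over all 21 of 11 codons. These positions were chosen from the 10-min libraries themselves, so they are a description with no test, and the band of distances was set after the values were seen.

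**Figure D3:**
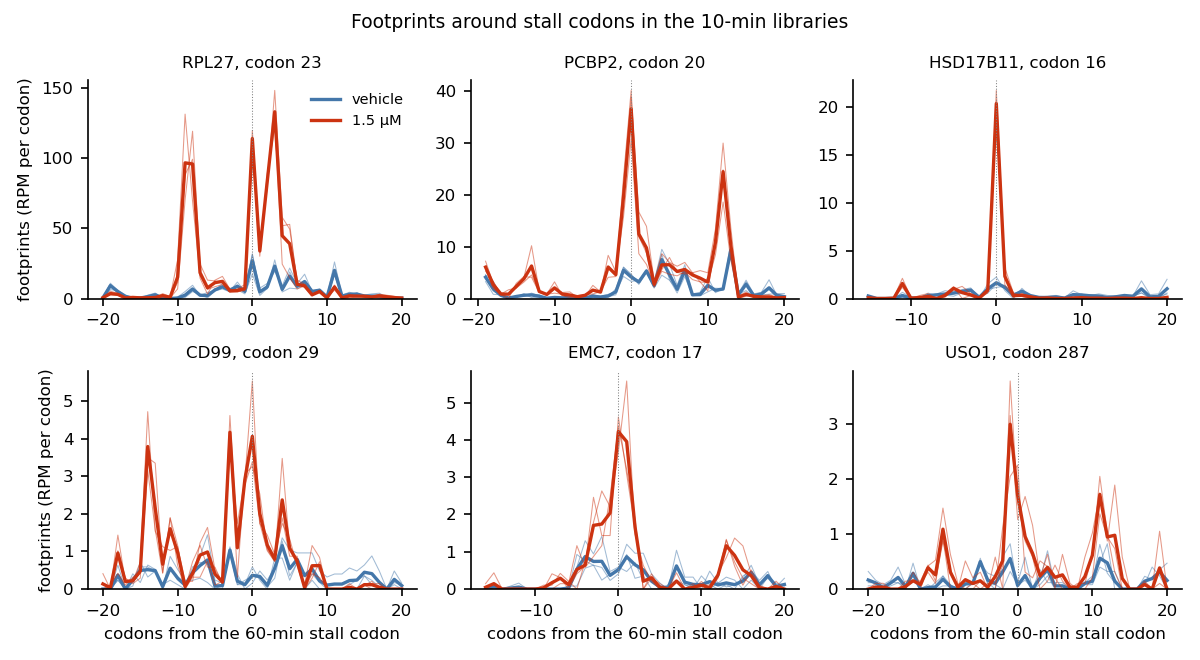
Footprints per codon (y axis, RPM) within 20 codons of the 60-min stall codon (x axis) in the 10-min libraries, for 6 genes. Thin lines are single libraries and thick lines group means. A rise at or next to the stall codon is present in each 1.5 µM library of all 6 genes, and RPL27 has a second one 9 codons upstream with a mean of 96.7 RPM against 2.39 in vehicle.

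Several stall codons lay in or next to runs of CTG, a leucine codon. These windows are shown because the run includes the codon in the P site or ends just before it.
BRI3BP: gggctcctgctgctgCTGctgctgctgctg
EMC7: ctgctgctgctgctgCTAtcgggggatgtc
LTBP3: ctgctgctgctgctgCTGggcctgggcggc
SUMF1: ggtctcgtcctcttgCTGctgctgctctcg
The letters CTGCTGCTG were searched on the coding strand only, in any frame, in 30-base windows. They occurred in 4 of the 19 windows (21.1%), all of them among the 15 windows within codons 6 to 50 (26.7%). Of 452837 windows of the same length at codons 6 to 50 of 10081 transcripts, 0.655% held them. At least 1 such run was present in codons 1 to 50 of 3.45% of those transcripts. The search was not planned before the data were seen, and the letters occur in the windows printed above, so these shares carry no test. A match is a description of the sequence and was not tested as a cause. EMC7, a subunit of the ER membrane protein insertase, rose from 0.585 ± 0.118 to 3.4 ± 0.394 RPM at codon 17 (SD, n = 3 each), and SUMF1, the enzyme that activates sulfatases, had a ratio of 10.7 at codon 22 (17.1 without vehicle replicate 3).

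Downstream of these positions the loss was large. RPL27 after codon 50 had 841, 1065 and 859 CPM in the vehicle libraries and 176, 210 and 227 CPM at 1.5 µM, all far below vehicle. Its log2 fold change was -2.17 (SE 0.131, edgeR adjusted p = 2.1e-06), while over the whole CDS it was -0.12. Reads of codons 1 to 50 made up 20.2% to 30.7% of its footprints in vehicle and 81.4% to 84.6% at 1.5 µM.

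HSD17B11 after codon 50 fell from 103, 122 and 90.7 CPM to 21.9, 25.2 and 24.1 CPM (log2 fold change -2.15, SE 0.138, edgeR adjusted p = 2.43e-06). The 1.5 µM libraries were close to one another, and the share of its reads in codons 1 to 50 went from 19.6% to 21.3% in vehicle to 59.7% to 63% at 1.5 µM. MST1, the hepatocyte growth factor-like protein made by liver cells, went from 42.3, 42.5 and 30.9 CPM to 11.3, 9.95 and 9.81 CPM (log2 fold change -1.91, edgeR adjusted p = 2.99e-05). MDK, the heparin-binding growth factor midkine, had 143, 204 and 202 CPM in vehicle and 42, 55.9 and 51.3 CPM at 1.5 µM (log2 fold change -1.87, edgeR adjusted p = 2.41e-05). For both secreted proteins the groups were well separated.

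The paralogs PCBP1 and PCBP2, which share most reads, fell by 1.53 and 1.36 on the log2 scale after codon 50 (edgeR adjusted p = 4.53e-06 and 2.41e-05). The ER membrane chaperone BCAP31 fell by 1.27, LTBP3, a latent TGF-beta binding protein, by 1.53, and SUMF2, the paralog of SUMF1, by 1.01, each with an edgeR adjusted p under the FDR whichever library was left out. Among others, calls for CCR1, DPCD, PODXL2, SUMF1 and USO1 were lost with 1 or more libraries left out, the highest edgeR adjusted p being 0.313. In 2 genes of the list no change after codon 50 was called: CDH1, E-cadherin, whose largest rise was at codon 617 at 60 min and 729 at 10 min and which had a log2 fold change of -0.15 (edgeR adjusted p = 0.555), and IFI30, a lysosomal thiol reductase with a stall at codon 92 and a value of 0.18 (edgeR adjusted p = 0.473). For both, reads after codon 50 include the stall itself.

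**Figure D4:**
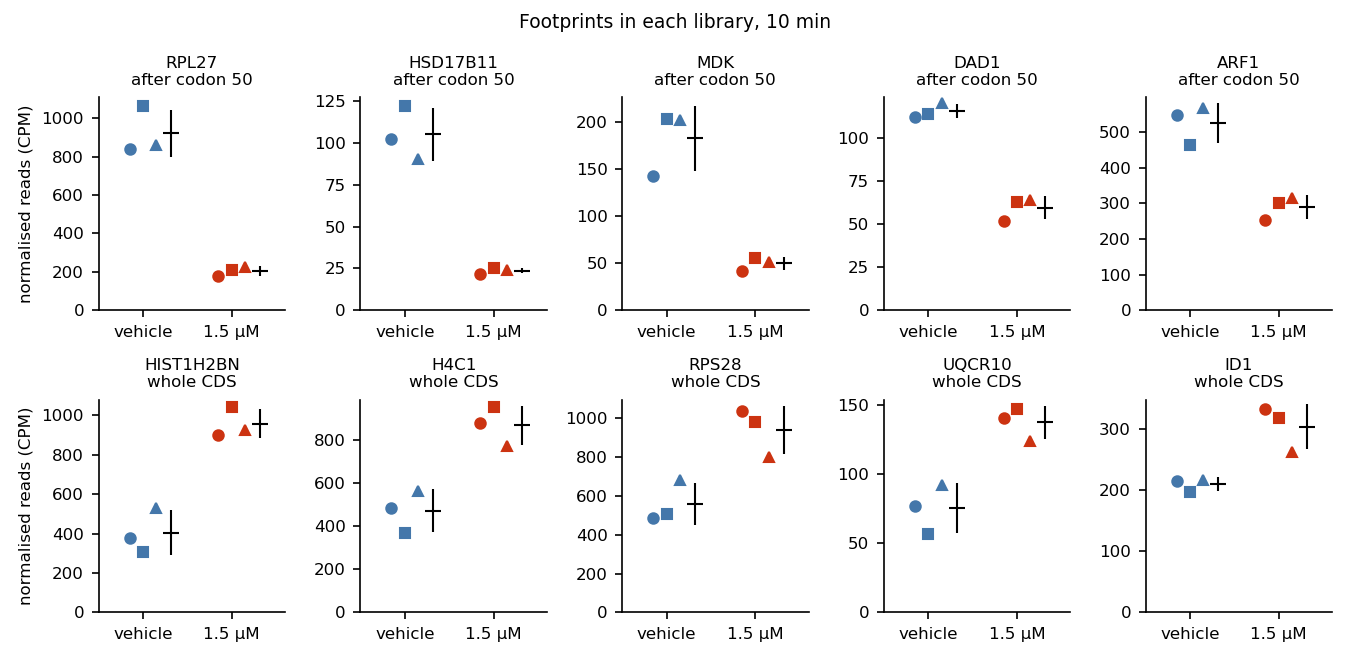
Normalised footprints (y axis, CPM, starting at 0) of 10 genes in each 10-min library, after codon 50 in the upper row and over the whole CDS in the lower row. Circles, squares and triangles are replicates 1, 2 and 3, and the bar is the mean ± SD (n = 3). In each panel the 3 libraries of 1.5 µM lie all below or all above the 3 vehicle libraries, as for RPL27 (176 to 227 against 841 to 1065 CPM) and HIST1H2BN (903 to 1042 against 307 to 530 CPM).

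Outside the stall list genes described here, 111 genes were lower after codon 50. DAD1, a small subunit of the oligosaccharyltransferase that glycosylates proteins entering the ER, had 112, 114 and 120 CPM in vehicle and 52.1, 62.6 and 64.1 CPM at 1.5 µM. Its log2 fold change was -0.95 (SE 0.115, edgeR adjusted p = 0.000971), and 0.51 over codons 1 to 50. ARF1, the GTPase that recruits vesicle coats at the Golgi, had 547, 463 and 567 CPM against 252, 302 and 315 CPM (log2 fold change -0.86, SE 0.118, edgeR adjusted p = 0.00278). In both genes every 1.5 µM library was below every vehicle library.

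Other genes of the secretory pathway were called with them. Of 43 genes for ER targeting, translocation and glycosylation, 42 were tested after codon 50 and 4 were called lower (DAD1, SSR1, SEC11A and the stall list gene EMC7) and none higher, beside 1.21% of all genes lower. The call of SEC11A, a signal peptidase subunit, was kept in 1 of the 6 fits on 5 libraries (edgeR adjusted p = 0.0947, up to 0.354). Groups did not overlap in 10 that were lower and 3 that were higher, beside 12% and 10.5% of all genes. The class median was -0.05, with quartiles of -0.25 and 0.09. Between 2 and 3 of its calls were left when 1 library was removed, except without vehicle replicate 3, when 9 were lower and 2 higher, beside 7.61% and 7.86% of all genes. SSR1, a subunit of the translocon-associated complex, fell by 0.64 (edgeR adjusted p = 0.0113, up to 0.129 with 1 library left out). Over codons 1 to 50, 20 of the 43 were higher, beside 16% of all genes, and none lower. Among 45 genes for coats and vesicle transport, ARF1, ARF4, TMED2 and the stall list gene USO1 were lower after codon 50 and none higher, beside 1.21% and 0.605% of all genes. The class median was 0.00, and 1 call was left without vehicle replicate 1, 1.5 µM replicate 1 or 1.5 µM replicate 2, and 2 without 1.5 µM replicate 3. Without vehicle replicate 3, 8 were lower and 3 higher, beside the same 7.61% and 7.86%.

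Among the lower genes with other functions, MRPL45, a mitochondrial ribosomal protein, had 69.1, 79.9 and 72.4 CPM after codon 50 in vehicle and 40, 40.3 and 41.5 CPM at 1.5 µM (log2 fold change -0.86, edgeR adjusted p = 0.00192, at most 0.0335 with 1 library left out). GINS1, a subunit of the replicative helicase complex, fell by 0.75 and EIF3J, an initiation factor subunit, by 0.62 (edgeR adjusted p = 0.0129 and 0.0425), with both calls lost without 1.5 µM replicate 1 or 2. TMA7, SCOC and MRPL52 had large negative values of -1.61, -1.59 and -1.81, and in each of them vehicle replicate 2 was more than 2 times the other vehicle libraries: 78 CPM in TMA7 against 25.4 and 26, for example. Their edgeR adjusted p was 0.0647, 0.0472 and 0.0991, up to 0.375 with 1 library left out. All 3 calls were lost without any 1 of the 1.5 µM replicates, and that of MRPL52 also without vehicle replicate 2.

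Over the whole CDS 32 genes other than the stall list genes described here were lower. IGF2BP2, an mRNA-binding protein of fetal liver and tumours, had 89.1, 98.6 and 74.8 CPM in vehicle and 46.5, 45.2 and 38.5 CPM at 1.5 µM, with no overlap (log2 fold change -1.02, SE 0.129, edgeR adjusted p = 0.00492). SORCS2, a sorting receptor, had a log2 fold change of -1.44, TBCCD1, a centrosome-positioning protein, of -1.15, and IQCB1, a protein of the ciliary transition zone, of -1.01 (edgeR adjusted p = 0.016, 0.0266 and 0.0292). Their calls were lost with 1 or 2 of the 6 libraries left out (SORCS2 without 1.5 µM replicate 1, TBCCD1 without vehicle replicate 1 or 1.5 µM replicate 2, IQCB1 without vehicle replicate 1 or 1.5 µM replicate 1; edgeR adjusted p up to 0.204).

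Single genes gained most over codons 1 to 50. PODXL2 went from 1.88, 2.39 and 2.58 CPM in these codons to 16.2, 13.4 and 11.1 CPM (log2 fold change 2.58, edgeR adjusted p = 6.03e-05). TM2D3, a transmembrane protein, TGFBI, a secreted matrix protein, FUCA2, a secreted fucosidase, and SRXN1, the cytosolic sulfiredoxin, followed with 2.24, 2.01, 1.71 and 2.06. All 5 kept the call with any library left out. In TM2D3 the reads after codon 50 had a log2 fold change of -1.29, in FUCA2 of -0.46. At the other end COPS8, a COP9 signalosome subunit, had 9.86, 16.6 and 7.87 CPM against 4.86, 4.79 and 5.09 CPM (log2 fold change -1.23, edgeR adjusted p = 0.0136), and the ribosome assembly factors GNL3 and FCF1 had -1.31 and -1.04. In GNL3, BUD31, FCF1 and MPHOSPH6 vehicle replicate 2 was the highest library and the call was lost without it, and also without 1.5 µM replicate 1, with edgeR adjusted p up to 0.326.

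Loss after codon 50 and gain before it were found together in a part of the genes. Of 7356 genes tested in both stretches, 119 were lower after codon 50, and 33 of these (27.7%) were higher over codons 1 to 50, beside 16.2% of all genes. Without the stall list genes described here 20 such genes were left (19.8%), beside 16% of all genes. Of 58 genes higher after codon 50, 34 (58.6%) were higher over codons 1 to 50. The 2 stretches of a gene come from the same libraries, so these shares are given with no test.

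Core histones made up 13 of the 51 genes that were higher. Replication-dependent core histones package new DNA in S phase, and their mRNAs end in a stem-loop in place of a poly(A) tail. All 52 in the files were tested: those 13 were called higher and none lower over the whole CDS, beside 0.462% of all genes, and in 38 the 1.5 µM libraries lay above all vehicle libraries, beside 10.8%. The class median was 0.44 over the whole CDS, 0.42 after codon 50 and 0.68 over codons 1 to 50, against 0.01, 0.00 and 0.29 over all genes. After codon 50, 18 were higher, beside 0.605% of all genes, and none lower, with 1 to 45 higher when 1 library was left out. The summed footprints were 40796, 38055 and 51944 CPM in the vehicle libraries and 61086, 61790 and 57734 CPM at 1.5 µM, a ratio of 1.38 with no overlap, and vehicle replicate 3 was the highest vehicle library.

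The histone calls depended on single libraries. Without vehicle replicate 3, 47 of the 52 were called higher, beside 7.87% of all genes, and the median was 0.58. Without vehicle replicate 1 or 1.5 µM replicates 1 or 2, 1 was called, with medians of 0.38, 0.45 and 0.42. Removing vehicle replicate 2 left 8 and 1.5 µM replicate 3 left 7, with medians of 0.35 and 0.46. After codon 50, 6, 13 and 45 were called without vehicle replicates 1, 2 and 3, and 3, 1 and 11 without 1.5 µM replicates 1, 2 and 3. Of all genes, 7.86% were higher after codon 50 without vehicle replicate 3. Histone genes are near-identical in sequence and reads with up to 5 equally good sites were kept by the authors, so members are not independent and single members are uncertain.

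All 4 families of core histones had more footprints at 1.5 µM. Summed footprints had ratios of 1.38 for 13 H2A genes, 1.39 for 17 H2B genes, 1.32 for 11 H3 genes and 1.44 for 11 H4 genes, with no overlap between the groups in any of them. HIST1H2BN went from 375, 307 and 530 CPM to 903, 1042 and 927 CPM (log2 fold change 1.25, SE 0.162, edgeR adjusted p = 0.00529, at most 0.0493 with 1 library left out). H4C1 had 486, 367 and 566 CPM in vehicle and 883, 953 and 775 CPM at 1.5 µM (log2 fold change 0.88, edgeR adjusted p = 0.0226, up to 0.169 with 1 library left out). H4C14, the most read H4 gene, had 2352, 1891 and 3007 CPM against 3552, 3502 and 3277 CPM without passing the test (edgeR adjusted p = 0.136). In each of these genes vehicle replicate 3 was nearest to the 1.5 µM libraries.

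The linker and replacement histones were a separate list. Of its 15 members 1 was higher over the whole CDS, beside 0.462% of all genes, and the class median was 0.00. This was H2AX, the variant phosphorylated at DNA breaks, with a log2 fold change of 0.74 (edgeR adjusted p = 0.0647, up to 0.315 with 1 library left out). Without vehicle replicate 3, 4 members were higher and none lower, beside 7.87% and 7.01% of all genes. H2AX is also made from a stem-loop mRNA in S phase. The linker histone H1-2 had 579, 1093 and 635 CPM in vehicle and 680, 603 and 490 CPM at 1.5 µM, which overlapped.

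Many of the genes that were higher had short coding sequences. The 51 genes higher over the whole CDS had a median of 131 codons, and 36 of them (70.6%) had 200 codons or fewer, beside 19.6% of all genes tested. Without the histones 23 of 38 (60.5%) did. Of the 43 lower genes 3 (6.98%) were that short. After codon 50, 41 of the 65 higher genes (63.1%) and 44 of the 130 lower genes (33.8%) had 200 codons or fewer, beside 17.8% of all, and without the histones 23 of the 47 higher genes (48.9%) did. Summed over 1670 genes of more than 100 and up to 200 codons, footprints were 179382, 187443 and 203427 CPM in vehicle and 210238, 218209 and 212852 CPM at 1.5 µM. The groups did not overlap, and vehicle replicate 3 was again the nearest. These sums include core histones and were not taken without them. The median log2 ratio of the same genes to the vehicle mean overlapped between the groups. It was -0.078, 0.022 and 0.039 in vehicle and -0.006, 0.051 and 0.035 at 1.5 µM. Over 491 genes of 100 codons or fewer the sums were 33574, 36999 and 51957 CPM against 37431, 39893 and 44330 CPM, which overlapped, with a ratio of 0.993. Their median log2 fold change was 0.08 over the whole CDS. After codon 50, 322 genes of this length were tested, with a median of -0.08. Of these, 13 were called lower and 5 higher, beside 1.21% and 0.605% of all genes. In genes this short, reads after codon 50 come only from the part of the CDS near the stop codon.

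UQCR10, a small subunit of respiratory complex III, was called over the whole CDS and not after codon 50. It had 77.3, 56.6 and 92.7 CPM in vehicle and 141, 148 and 125 CPM at 1.5 µM (log2 fold change 0.87, edgeR adjusted p = 0.0339), with all 1.5 µM libraries higher, while its log2 fold change after codon 50 was -0.44 and did not pass (edgeR adjusted p = 0.42). TOLLIP, an adaptor of Toll-like receptor signalling read here as a short isoform of 81 codons, had 1.14 over the whole CDS and -0.02 after codon 50. TXNL4A, a spliceosome component read as a 58-codon isoform, had 0.98 and 0.29, and ERP29, an ER folding factor of which 95 codons were read, 0.60 and -0.19. In coding sequences as short as these, the values after codon 50 rest on the part near the stop codon. For TXNL4A that is the last few codons of its isoform. The 4 calls over the whole CDS were lost with 2 to 4 of the libraries left out, vehicle replicate 1 and 1.5 µM replicate 1 among them in each case (edgeR adjusted p up to 0.328).

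A few longer or unrelated genes also ranked among the largest increases. After codon 50, AP1M2, a clathrin adaptor subunit of epithelia, had a log2 fold change of 1.05, RAN, the nuclear transport GTPase read here as a short isoform of 54 codons, 1.04, BCAN, the matrix proteoglycan brevican, 0.89, and TM6SF2, a regulator of hepatic lipoprotein secretion, 0.88. The value of RAN rests on the last few codons of its isoform, next to the stop codon. The edgeR adjusted p was 0.0468 for AP1M2, 0.0508 for RAN and 0.0632 for TM6SF2. BCAN was also called over the whole CDS, with 0.87. Each of these calls was lost in 3 to 5 of the 6 fits on 5 libraries, with an edgeR adjusted p of up to 0.383.

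Few ribosomal proteins were called over the whole CDS. Of 30 small subunit proteins RPS28 was called higher and none lower, 11 had all 1.5 µM libraries above vehicle and 1 below (beside 10.8% and 11.3% of all genes), and the median was 0.19. Their summed footprints were 24791, 26446 and 27929 CPM in vehicle and 29288, 30365 and 29423 CPM at 1.5 µM, which did not overlap. RPS28 itself had 486, 506 and 680 CPM against 1039, 979 and 798 CPM (log2 fold change 0.75, edgeR adjusted p = 0.046, up to 0.284 with 1 library left out). Of 48 large subunit proteins RPL28 was higher over the whole CDS (edgeR adjusted p = 0.0893), a call lost in 5 of the 6 fits on 5 libraries with an edgeR adjusted p of up to 0.383, and the median was 0.07. After codon 50 RPL28 had a log2 fold change of 0.82 (edgeR adjusted p = 0.0125, up to 0.129 without 1.5 µM replicate 1 or 2), and RPL27 was the 1 large subunit protein called lower. Leaving out vehicle replicate 3, 11 of the small subunit proteins were higher and none lower over the whole CDS, and 7 of the large subunit proteins were higher and 2 lower, beside 7.87% and 7.01% of all genes. In each other fit on 5 libraries at most 1 small subunit protein and no large subunit protein was called over the whole CDS. Over codons 1 to 50, 13 of 29 small and 16 of 48 large subunit proteins were higher, beside 16% of all genes.

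Single genes of other lists were called higher. Of 14 glycolytic enzymes PGAM2 was called over the whole CDS, and PGAM2, GAPDH and ALDOC after codon 50, with none lower, beside 0.462% and 0.605% of all genes called higher. The class median was 0.16, and its summed footprints were 16898, 15546 and 17379 CPM in vehicle and 19680, 19830 and 18447 CPM at 1.5 µM. GAPDH after codon 50 had 5801, 4662 and 6536 CPM against 7963, 8204 and 7743 CPM (log2 fold change 0.49, edgeR adjusted p = 0.0899). PGAM2, the muscle-type phosphoglycerate mutase, had 5.4, 4.38 and 4.03 CPM against 19.5, 14.5 and 6.43 CPM, so 1.5 µM replicate 3 was near vehicle (edgeR adjusted p = 0.069, up to 0.357 with 1 library left out). GAPDH and ALDOC were called only with vehicle replicate 3 left out among the 6 fits on 5 libraries.

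ID1, an inhibitor of basic helix-loop-helix factors and 1 of 38 immediate early genes tested, had 216, 198 and 218 CPM in vehicle and 333, 318 and 263 CPM at 1.5 µM. Its 1.5 µM libraries were all higher (log2 fold change 0.53, edgeR adjusted p = 0.0651, up to 0.383 with 1 library left out). It was the single called gene of that class over the whole CDS, where the median was 0.12. In the fit without vehicle replicate 3, 6 of the class were higher, beside 7.87% of all genes, and over codons 1 to 50, 8 of 28 were, beside 16%. In the selenoproteins, antioxidant and redox enzymes for the most part, GPX1 and GPX4 were called higher over the whole CDS, beside 0.462% of all genes. Their log2 fold changes were 0.65 and 0.66 (edgeR adjusted p = 0.0971 and 0.099, both up to 0.4). All 1.5 µM libraries lay above vehicle in 6 of 19 members, beside 10.8% of all genes. Of the 19, 8 were called higher without vehicle replicate 3, beside 7.87% of all genes. Of 36 complex I subunits tested, NDUFA9 and NDUFA7 were higher both over the whole CDS and after codon 50, beside 0.462% and 0.605% of all genes. NDUFB1, NDUFA1 and NDUFA4 were lower after codon 50, beside 1.21%. The calls of all 5 were lost in 3 to 5 of the 6 fits on 5 libraries (edgeR adjusted p up to 0.4).

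Among membrane transporters no gene was called over the whole CDS or after codon 50. The median of 187 solute carriers was 0.17, with 21 above and 9 below vehicle in all libraries (beside 10.8% and 11.3% of all genes), and the summed footprints were 11098, 9517 and 11160 CPM in vehicle and 12136, 11374 and 11333 CPM at 1.5 µM. Without vehicle replicate 3, 23 were called higher and 1 lower, beside 7.87% and 7.01% of all genes. Over codons 1 to 50, 26 of 116 were higher, beside 16%. The 138 numbered transmembrane (TMEM) genes had a median of 0.09, with 29 above and 8 below, beside the same 10.8% and 11.3%, and none was called over the whole CDS. Of 140 tested without vehicle replicate 3, 21 were higher and 2 lower, beside 7.87% and 7.01% of all genes. Among 14 tubulins 6 were above and 2 below vehicle in all libraries, again beside 10.8% and 11.3%, with a median of 0.24 and none called over the whole CDS. When vehicle replicate 3 was left out 8 of them were higher and none lower, beside 7.87% and 7.01% of all genes. Over codons 1 to 50, 5 of 12 were higher, beside 16%. Their summed footprints, 15808, 13394 and 17492 CPM in vehicle and 17342, 19297 and 18815 CPM at 1.5 µM, overlapped.

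Mitotic genes lay on the lower side with 1 call. Of 40 mitotic genes CENPF, a kinetochore protein, was called lower over the whole CDS and none higher, 13 had all 1.5 µM libraries below vehicle (beside 11.3% of all genes) and none above, and the median was -0.23. The summed footprints were 5696, 6302 and 5469 CPM in vehicle and 4939, 5170 and 5440 CPM at 1.5 µM, so that 1.5 µM replicate 3 was only just below vehicle replicate 3. CENPF had 208, 258 and 176 CPM against 137, 138 and 157 CPM (log2 fold change -0.57, edgeR adjusted p = 0.098, up to 0.4 with 1 library left out). TOP2A, the topoisomerase of dividing cells, had 592, 676 and 520 CPM against 412, 493 and 500 CPM and did not pass the test (edgeR adjusted p = 0.183). After codon 50 the kinetochore genes CENPF, NUF2 and SPC25 were lower, beside 1.21% of all genes, with edgeR adjusted p of 0.0744, 0.0804 and 0.0948. Each of these calls was lost in 5 of the 6 fits on 5 libraries, with an edgeR adjusted p of up to 0.345, 0.359 and 0.348. Without vehicle replicate 3, 14 mitotic genes were called lower over the whole CDS, beside 7.01% of all genes, and in each other fit on 5 libraries none was.

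Further classes had negative medians. The 60 ribosome biogenesis factors had a median of -0.14, with 22 below and 5 above vehicle in all libraries (beside 11.3% and 10.8% of all genes) and none called over the whole CDS. With vehicle replicate 3 left out, 12 were called lower and 3 higher, beside 7.01% and 7.87%. In each other fit on 5 libraries none was called over the whole CDS. UTP11, a factor of small subunit assembly, was the 1 called member after codon 50 (log2 fold change -0.69, edgeR adjusted p = 0.0872, up to 0.36). Among 24 ER chaperones and disulfide isomerases the median was -0.14. There ERO1A, the oxidase that drives disulfide formation, fell by 0.65 and DNAJB11, a co-chaperone, by 0.49 over the whole CDS (edgeR adjusted p = 0.0547 and 0.0651), and ERP29 was higher. Of all genes 0.389% were called lower and 0.462% higher. Without vehicle replicate 3, 6 of the 24 were lower and 2 higher, beside 7.01% and 7.87%. The call of ERO1A was lost in 3 and that of DNAJB11 in 5 of the 6 fits on 5 libraries, with an edgeR adjusted p of up to 0.353 and 0.383. The 36 cytosolic chaperones had a median of -0.12 with 10 below and 1 above vehicle, beside 11.3% and 10.8% of all genes, and none called. Of 301 numbered zinc-finger genes 38 were below, a share near the 11.3% of all genes, and 12 above (10.8% of all genes), with a median of -0.08 and none called.

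Several classes that bear on liver cells and on translation had no called gene over the whole CDS. None of 20 cholesterol biosynthesis enzymes was called or separated the groups (median 0.01). Of 43 hepatocyte plasma proteins none was called and 2 were above vehicle in all libraries, beside 10.8% of all genes (median -0.06). No initiation factor, elongation factor, tRNA synthetase or ribosome rescue factor was called over the whole CDS. The 24 genes of the integrated stress response, the program that follows phosphorylation of eIF2, had a median of 0.13 with 2 above and 2 below vehicle, beside 10.8% and 11.3% of all genes. Their summed footprints were 2478, 2310 and 2502 CPM in vehicle and 2718, 2700 and 2587 CPM at 1.5 µM, which did not overlap. Of 34 proteasome subunits 3 were below and none above, beside 11.3% and 10.8%. The 13 mitochondrially encoded proteins ranged widely between vehicle libraries, from 737 to 2744 CPM in sum, and their 1.5 µM libraries (1375 to 2354 CPM) lay within that range. Without vehicle replicate 3 the calls over the whole CDS were 3 lower and 1 higher for cholesterol biosynthesis, 6 lower and 1 higher for plasma proteins, 3 higher for the stress response and 1 in each direction for the proteasome. In the same fit, 1 of 12 elongation and termination factors was lower and 3 higher. Of 38 initiation factors 4 were lower and 2 higher, and 2 of 19 tRNA synthetases and 1 of 23 rescue factors were lower. Of all genes 7.01% were then lower and 7.87% higher. Failure to pass the test does not show that these genes were unchanged.

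**Figure D5:**
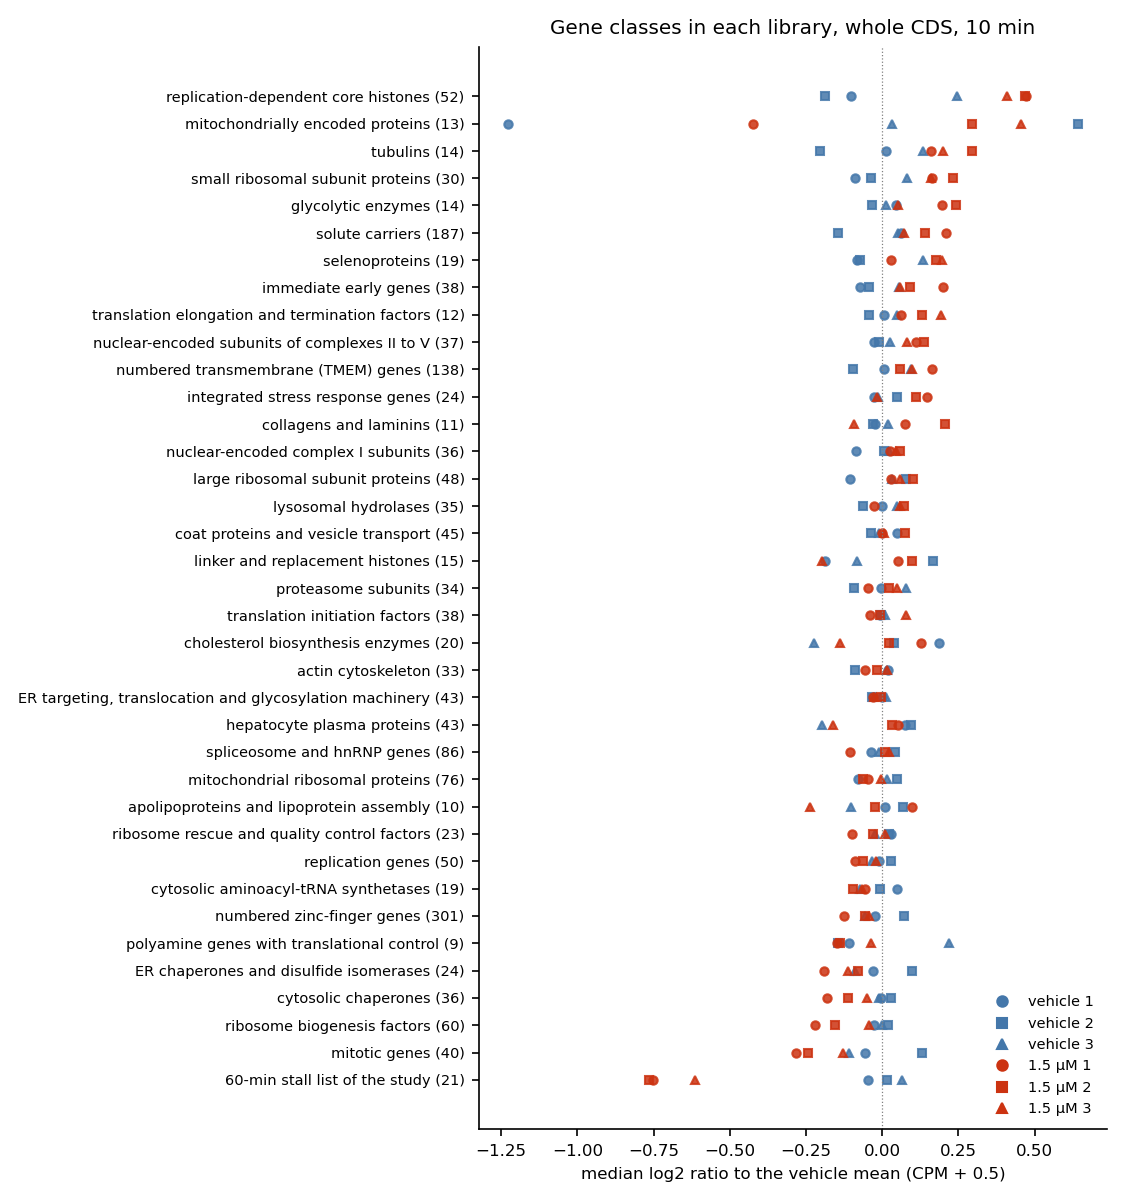
Median over the members of each gene class (y axis, members tested in brackets) of the log2 ratio to the vehicle mean (x axis, CPM plus a pseudocount of 0.5), for 3 vehicle and 3 1.5 µM libraries of 10 min, 1 symbol a library. Among classes whose groups do not overlap, core histones (52) and the 60-min stall list (21) lie farthest from 0 at 1.5 µM, vehicle replicate 3 lies on the side of the 1.5 µM libraries for histones and mitotic genes, and the mitochondrially encoded proteins spread most between vehicle libraries.

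The libraries of 60 min share no sample with those of 10 min and give the same genes a second measurement. At 60 min, 8 genes were lower over the whole CDS (0.0726%) and none higher, and after codon 50 the counts were 19 (0.177%) and none. Of the 43 genes lower at 10 min, 40 (93%) had a negative log2 fold change at 60 min, beside 50.7% of all genes, and 8 of them were called. Without the stall list genes described here, which were chosen on the 60-min libraries, 29 of 32 (90.6%) were negative with a median of -0.28. Any gene of the study's list that is not described here was not removed. The 51 higher genes were positive at 60 min in 43 cases (84.3%, beside 49.3% of all genes), with a median of 0.16 against 0.68 at 10 min, and none was called. Without the histones 30 of 38 (78.9%) were positive.

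After codon 50, RPL27 had a log2 fold change of -1.81 at 60 min, HSD17B11 -1.80, MST1 -1.73 and MDK -1.86, all called by edgeR at an FDR of 0.1. The stall list as a whole had a median of -1.16 at 60 min and -1.19 at 10 min. HIST1H2BN had 1.06 over the whole CDS at 60 min without passing the test (edgeR adjusted p = 0.364), and the median of the core histones was 0.14 at 60 min against 0.44 at 10 min. ARF1 after codon 50 had -0.75 at 60 min, near its value at 10 min. Mitotic genes had a median of -0.04 at 60 min.

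The difference between the effects at 10 and 60 min was tested for every gene by an interaction term in edgeR. No gene passed the FDR of 0.1, over the whole CDS or after codon 50, and the numbers at an unadjusted p under 0.05 were 506 (4.53%) and 517 (4.75%). In simulated counts the interaction test recovered 6% and 7% of genes whose effects differed by 0.5 on the log2 scale. For a difference of 1 it recovered 57% over the whole CDS and 73% after codon 50. The lack of calls therefore does not show that the effects were the same at both times. DESeq2 called none over the whole CDS and 1 after codon 50. IQCB1, with -1.01 at 10 min and -0.02 at 60 min, and RPS28, with 0.75 and -0.07, were among the genes with a small unadjusted p from the edgeR interaction term (0.000943 and 0.00481). DAD1 after codon 50 had -0.95 and -0.33 (unadjusted p = 0.00217 from the edgeR interaction term), and AMD1, the decarboxylase of polyamine synthesis, had -0.52 and 0.58 (unadjusted p = 8.88e-05 from the same term). None of these differences passed the correction.

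At 0.3 µM for 10 min no gene was called by edgeR over the whole CDS or after codon 50. Those libraries were compared with the same vehicle libraries, so their values are given only side by side. After codon 50 RPL27 had a log2 fold change of -0.74 at 0.3 µM beside -2.17 at 1.5 µM, HSD17B11 -0.75 beside -2.15, MDK -0.87 beside -1.87 and DAD1 -0.26 beside -0.95. HIST1H2BN over the whole CDS had 0.44 beside 1.25, and the core histone median was 0.07 beside 0.44.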

How the data were processed

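Ribosome-protected fragments of Huh7 cells were sequenced by the authors, who aligned reads with Bowtie 1.1.2 to the most abundant isoform of each expressed gene (GRCh38, Ensembl release 78, abundance from kallisto 0.42.5), kept reads with up to 5 equally good sites, assigned them to the codon in the P site and deposited whole read counts per codon for each library. Counts per codon were summed per transcript over the whole CDS, after codon 50 and over codons 1 to 50. Of 12325 transcripts 11270 were named through GENCODE release 44 and 228 through a table of the study.

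Sums were tested with edgeR 4.0.16 (filterByExpr with a minimum count of 10, TMM, quasi-likelihood F test, Benjamini-Hochberg FDR of 0.1) in R 4.3.3, on the 6 libraries alone. CPM values use the TMM-normalised library sizes. Codons 1 to 50 were scaled by the totals and TMM factors of the reads after codon 50. The SE of a log2 fold change was derived from the F statistic. The 10-min and 60-min effects were compared by an interaction term over the libraries of both times. Stall codons were compared in RPM by exact two-sided permutation tests. The same rule was applied to all other transcripts, and genes were counted without the stall list genes described here, as additions made after seeing the data. Classes were described by counts and medians, with no test. Coordinates and bases are from GENCODE release 44 on GRCh38, for transcripts whose CDS length matched.

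Genes were named by rule: called genes with the most extreme log2 fold changes in either direction, at least 50 reads on average and no overlap between groups, the stall list, and in each class the called members of smallest p and the most read members. Members, lists and tests were chosen with earlier results of these data known. A pair of transcripts with identical reads that the rule also names is not given. Results for some genes of the lists are not reported here. A class defined by a hydrophobic N terminus was not run. The study describes the replicates as biological, and p-values measure the spread between these libraries. In simulated counts with known changes, the whole-CDS test recovered 97% of genes changed by 1 on the log2 scale and 43% of those changed by 0.5, and 20.9% of its calls were false. The counts were drawn independently for each gene, and only genes with at least 50 reads on average were changed. Differences between replicate libraries that many genes share were not simulated, so these rates may not hold for the calls in the data. Alternatives were DESeq2 1.42.0 and its size factors, no filter, other codon ranges, all 18 libraries of the experiment, a replicate block and leaving out each library. Replicates differed by more than sampling noise (chi-square per transcript from 5.33 to 33.9), so none was a duplicate.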

Additional observations from a re-analysis of the deposited data

How the results depend on the processing

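Counts of called genes depended on the processing. Over the whole CDS, where 94 genes were called, an FDR of 0.05 gave 29 (11 higher, 18 lower), DESeq2 519 (278 and 241, with 90 of the 94 shared), a fit on all 18 libraries 30 (4 and 26) and leaving out the first and last 15 codons 232 (124 and 108, with 85 shared). After codon 50, where 195 were called, the FDR of 0.05 gave 88 (23 and 65), DESeq2 604 (293 and 311, with 186 shared), no filter 298 (119 and 179) and all 18 libraries 60 (6 and 54). Over codons 1 to 50 the 1278 calls became 399 (204 and 195) with own scaling. Leaving out 1 library gave 9 to 1656 calls over the whole CDS, 25 to 1674 after codon 50 and 311 to 1642 over codons 1 to 50. DESeq2 called 1 gene in the interaction of time and compound after codon 50, where edgeR called none. The number of stall codons that separated the groups was 19 to 20 with any library left out, 18 of 21 when scaled by the density of the gene and 17 for the codon alone. Of the ratios at 20 of these codons, 16 moved by more than the spread between replicates with the first of these scales, 11 of 19 with the codon alone, 8 without vehicle replicate 3, 6 without vehicle replicate 2 and 3 of 19 without vehicle replicate 1. The cause of these shifts was not tested. In counts simulated at these depths 43% of genes changed by 0.5 on the log2 scale were recovered over the whole CDS; other depths were not simulated.

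Same-numbered libraries were not taken as pairs. Their deviations from the group means correlated with 0.213, 0.238 and 0.0573, the last under the limit set for pairing, and the labels only number them. With the replicate block the counts were 1196 over the whole CDS (655 higher, 541 lower, all 94 shared) and 1171 after codon 50 (582 and 589, all 195 shared), with 1 gene in each interaction test. Over codons 1 to 50 the block gave 1136 (1074 and 62, with 1105 shared). Each 1.5 µM library correlated best with the vehicle library of its own number, but vehicle replicate 3 did so with 1.5 µM replicate 1 (0.0848).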

Other observations

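Second rises were also found in other stall genes. In MDK, 11 codons after the stall codon, the mean was 0.215 RPM in the vehicle libraries and 5.28 RPM at 1.5 µM, in IFI30, 11 codons before it, 0.636 and 5.05 RPM, and in BCAP31, 11 codons before it, 0.335 and 3.92 RPM. PODXL2 had 0.0193 and 2.15 RPM at 11 codons before. In 16 of the 21 genes the groups did not overlap at the second codon, which was chosen from the same libraries.

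The enzyme AMD1 was lower at 10 min and had a positive value at 60 min. Its footprints after codon 50 were 51.7, 52.8 and 58.3 CPM in the vehicle libraries and 41.2, 33.2 and 39.4 CPM at 1.5 µM for 10 min (edgeR adjusted p = 0.0756, up to 0.368 with 1 library left out). At 0.3 µM, against the same vehicle libraries, the log2 fold change was -0.47.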
